A study of Brachypodium distachyon with 8 samples.

Results

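The loci described here are 3' UTRs of Brachypodium distachyon at which sequenced small RNAs of 25 to 41 nt formed the largest size class, with 42.6% to 73.4% of reads, and the commonest length was 34 nt or more. A 3' UTR is the untranslated end of a transcript, and a locus here is 1 transcript identifier. Reads were summed over 8 libraries for each locus and each length. Loci with 40 or more reads were kept, apart from the 100 with most reads, and the reads were divided into classes of 15 to 19, 20 to 23, 24 and 25 to 41 nt. A locus was chosen where the 25 to 41 nt class held the largest share and the commonest length was 34 to 41 nt, ties going to the shorter length. Of 18091 candidate loci from 13060 genes, 2810 were led by the 25 to 41 nt class, and 20 of these, from 12 genes, met the whole rule. The files held 30815 loci from 24118 genes in all. The lengths of the pooled reads chose these loci, so those lengths are given as a description. Intervals and calls given below on reads of 34 to 41 nt are part of that description and are not tests.

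The plants were the inbred, diploid line Bd21 of this model grass, and RNA came from leaves, with 1 library for each condition. Plants were held at 4 °C for 6 h or 24 h (cold), at 42 °C in a growth chamber for 1 h or 3 h (heat in air), or immersed in water at 42 °C for 1 h or 3 h (heat in water). For salt, soil was saturated with 300 mM NaCl and leaves were taken after 48 h, and the unstressed plants were grown at 22 °C like all the others before treatment. The study set out to profile small RNA populations in these plants and their response to abiotic stress.

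In plants, Dicer-like enzymes cut double-stranded RNA into small RNAs of a few set sizes. Those of 21 nt include most microRNAs, which direct cleavage or repression of messenger RNA, and those of 24 nt guide DNA methylation, mainly at transposons and repeats. Reads of 34 nt and more are longer than the usual Dicer-like products, and other small RNA reads of such lengths in leaves include pieces of transfer, ribosomal, small nucleolar and messenger RNA. The counts give a locus and a length and not a sequence, so none of these kinds could be assigned to the loci below.

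Total reads at 3' UTRs were 1730029 to 4622303 in the stressed libraries and 3642238 in the unstressed library, in which fewer loci had reads (20883 to 26825 against 15765). Libraries were compared after scaling with trimmed means of log ratios (TMM) over the 18191 loci with 40 or more reads. This scaling lowered every ratio of a stressed to the unstressed library by 3.59-fold to 9.20-fold relative to scaling by total reads. No condition was replicated, so each comparison is between libraries, no p-value is given, and intervals are exact (Clopper-Pearson) 95% intervals that cover counting error only. The protocols name 2 library kits and do not say which was used where, so kit and condition cannot be told apart.

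The 12 genes fell into 5 with 150 or more reads and 7 with 41 to 140. Taking the deepest chosen locus of each gene, they held 5568 reads, of which the 5 deeper genes had 89.8% and the 2 deepest 68.1%. The commonest length was 34 nt at 6 genes, 35 nt at 3, 36 nt at 1 and 37 nt at 2, and no gene had its commonest length at 38 to 41 nt. Over all 12 genes there were 45 reads of 38 nt or more and 0 of 40 or 41 nt.

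The deepest locus, Bradi1g62930.1, had 1046 reads of 34 nt among 2060, or 50.8%. Its next commonest length was 21 nt, with 387 reads, and 24 nt made up 11.9%. Its reads were thus concentrated at 3 lengths, with 59 reads at 35 nt and 22 at 33 nt beside the 34 nt peak. Bradi2g12470.1 had 458 reads of 37 nt among 1734, or 26.4%, and its next commonest length, 26 nt, had 112. Apart from the 37 nt peak, its reads were spread over all lengths from 15 to 36 nt. Bradi3g34250.1 had 128 reads of 35 nt and 114 of 34 nt among 672, followed by 63 of 33 nt, a broader peak over neighbouring lengths. Bradi2g22900.1 had 51 reads of 36 nt and 46 of 37 nt among 371, and a lower group of 29 reads at 30 nt. Bradi3g39930.1 had 38 reads of 34 nt and 21 of 17 nt among 161. Reads of 34 to 41 nt were 53.9% of the reads at Bradi1g62930.1, 36.9% at Bradi2g12470.1, 38.4% at Bradi3g34250.1, 42.0% at Bradi2g22900.1 and 36.0% at Bradi3g39930.1. The profiles therefore differed in where the peak lay and in how sharp it was, and the 24 nt class was small at the other 4 deeper genes, at 2.48% to 4.61% of reads.

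**Figure D1:**
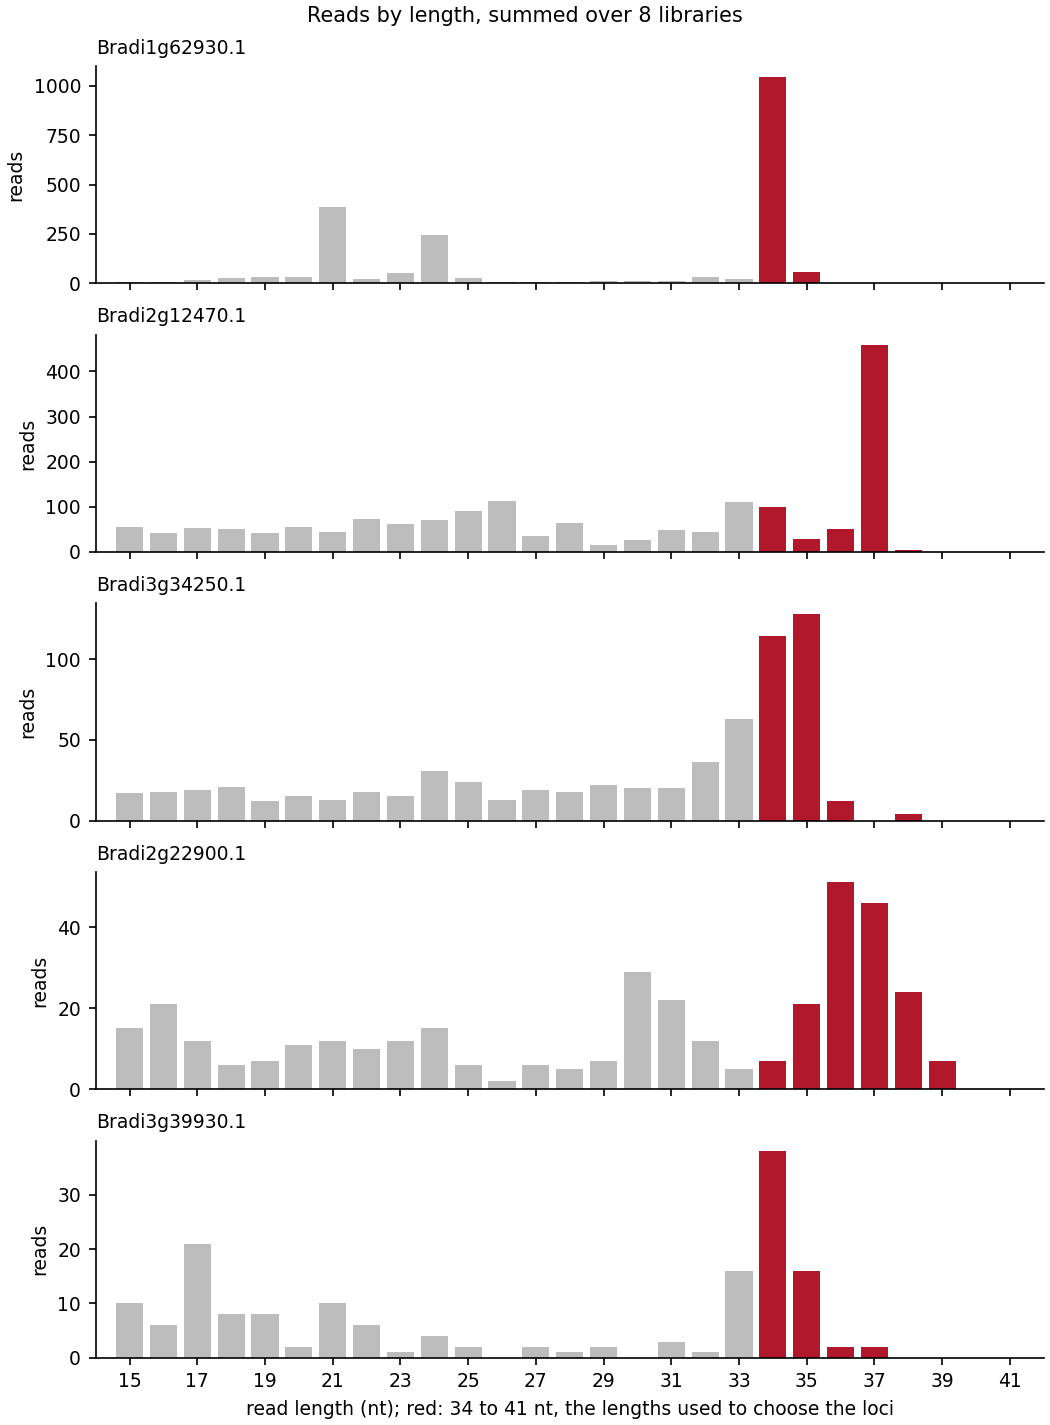
Reads (vertical axis) by read length in nt (horizontal axis) at 1 locus of each of the 5 deeper genes, summed over the 8 libraries, with 34 to 41 nt in red. Bradi1g62930.1 has a narrow peak at 34 nt beside peaks at 21 and 24 nt, Bradi2g12470.1 has a narrow peak at 37 nt above a spread of all lengths, and the other 3 have peaks over neighbouring lengths.

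At the 7 shallower genes the commonest length rested on 6 to 18 reads. It led the commonest length below 34 nt by 1 to 8 reads, and at 6 genes by 2 or fewer. Bradi2g50240.1 was the exception, with 18 reads of 37 nt against 10 of 17 nt. Reads of 34 to 41 nt made up 12.1% to 26.4% at these genes. In the files, 69.3% of the entries of these genes (1 entry is 1 length in 1 library) were a count of exactly 2, against 26.3% at the 5 deeper genes. A lead of 2 reads is thus 1 such entry. Requiring a lead of more than 2 reads, an alternative chosen after the data were seen, left 11 of the 20 loci.

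**Figure D2:**
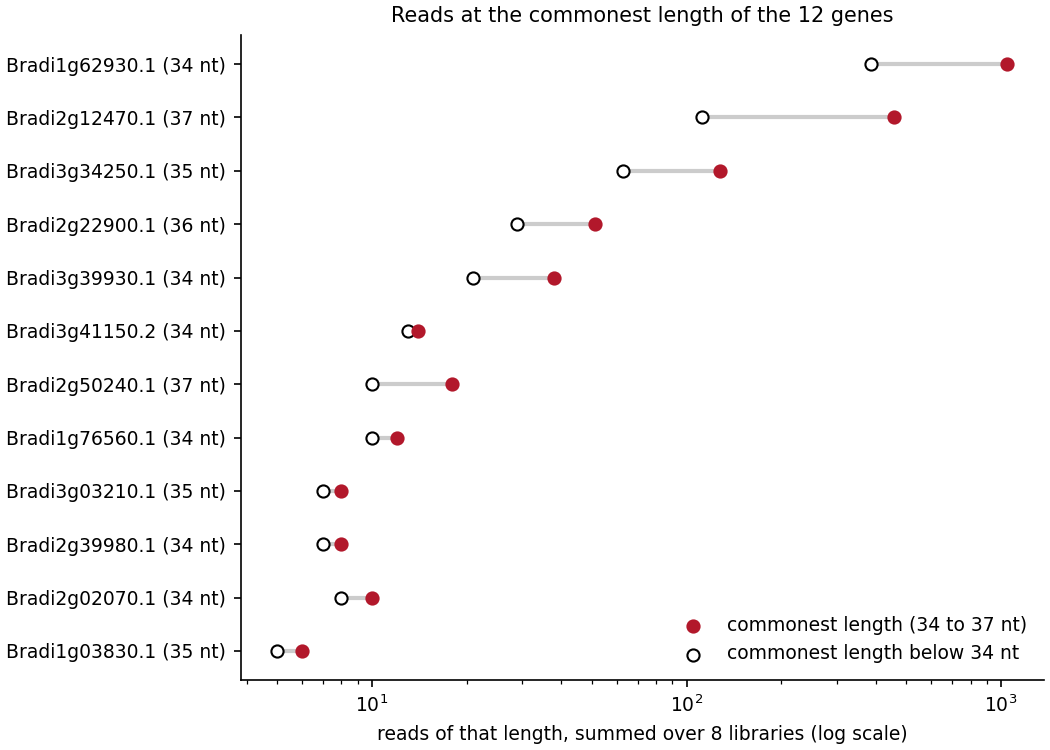
Reads summed over 8 libraries (log axis) at the commonest length (red) and at the commonest length below 34 nt (open) for 1 locus of each of the 12 genes, with the commonest length after the name. The gap is 659 reads at Bradi1g62930.1 and 2 reads or fewer at 6 of the 7 genes in the lower part.

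Just inside the minimum of 40 reads lay Bradi1g03830.1 with 41 reads and Bradi2g39980.2 with 45, and just outside it Bradi2g27790.1 with 35 and Bradi3g36390.1 with 34. Below the minimum, 60 loci had the same length pattern. Bradi2g39980.1 and Bradi3g41150.2 had the smallest margins of the 25 to 41 nt class over the next class, 9.43 and 10.0 percentage points. Bradi2g53430.1 lay outside by a tie, with 28 reads in each of the classes 15 to 19 and 25 to 41 nt among 68. On the peak length, Bradi1g03830.1 (6 reads of 35 nt against 5 of 27 nt) and Bradi2g39980.1 (8 of 34 nt against 7 of 18 nt) lay inside, and Bradi1g05420.1 and Bradi1g59120.1 lay outside by a tie at 4 reads. Leaving out the 100 most abundant loci removed Bradi3g56930.1 and Bradi3g56930.2, which had 109526 and 109527 reads, 69.9% of them of 35 nt. All 20 chosen loci together had 10129 reads counted per identifier.

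Identifiers of 1 gene repeated the same reads in large part. The 3 loci of Bradi2g12470 had 1734, 1732 and 1728 reads. Counts were identical at every length and library between Bradi3g34250.1 and Bradi3g34250.2, between Bradi1g76560.1 and Bradi1g76560.2, and between Bradi3g03210.1 and Bradi3g03210.3. Other identifiers of a gene could fall outside the rule: Bradi3g41150.1 had 175 reads and a peak at 33 nt, while Bradi3g41150.2, with 140, peaked at 34 nt. The 20 loci are therefore not 20 independent cases, and counts of loci below are counts of identifiers unless genes are named. Between genes, the largest possible overlap of a chosen locus with a locus of similar depth (0.5 to 2 times its reads) was 64.3% of its reads, for Bradi3g41150.2.

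Across libraries, and counted per identifier, the chosen loci had 1341, 1441, 1492, 1873, 871, 1410 and 1417 reads after 6 and 24 h of cold, 1 and 3 h of heat in air, 1 and 3 h of heat in water, and salt, and 284 in the unstressed library. All 20 had reads in 6 stressed libraries, 18 after 1 h of heat in water and 13 in the unstressed library. As reads per 1000000 of the library this was 321, 577, 323, 465, 448, 407 and 819, against 78.0 in the unstressed library. Per 1000000 reads outside the 100 most abundant loci it was 1010, 1201, 1481, 1456, 2349, 1718 and 2348, against 1444 in the unstressed library. The unstressed library was thus the lowest by the first measure and lay between the cold and the other stressed libraries by the second. Its interval by the second measure (1281 to 1622) held both values of heat in air. Reads of 1 gene entered this interval more than once, so it is too narrow. With 1 locus for each gene the unstressed library had 212 reads in place of 284.

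Bradi3g41150, Bradi2g50240, Bradi1g76560 and Bradi1g03830 had 0 unstressed reads, a count that allows up to 3.

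Counting each gene once, reads of 34 to 41 nt were 40.7% and 52.5% of reads after 6 and 24 h of cold, 33.5% and 27.2% after 1 and 3 h of heat in air, 62.9% and 44.9% after 1 and 3 h of heat in water, and 44.9% under salt, against 45.8% in the unstressed library. The share was highest after 1 h of heat in water (interval 58.2% to 67.4%) and lowest after 3 h of heat in air (24.5% to 30.1%). Counted per identifier the shares were 60.6% and 18.3% in those 2 libraries. The intervals pool the reads of all genes and leave out the spread between genes. After 3 h of heat in air the deeper genes ranged from 0 of 14 reads at Bradi3g39930.1 to 58.3% at Bradi1g62930.1. That the pooled share was highest after 1 h of heat in water depended on the 2 deepest genes. Without Bradi1g62930 and Bradi2g12470, and per identifier, it was 28.5% after 1 h of heat in water. The highest shares were then those of 6 and 24 h of cold, 51.7% and 51.5%. The 28.5% includes Bradi3g34250, with 6 long reads of 31, as 2 identical loci. Outside the 2 deepest genes, Bradi2g22900.1 also had its highest share after 1 h of heat in water, 67.6% of 34 reads. At all other candidate loci the share was 0.904% after 3 h of heat in air, 3.02% after 1 h of heat in water, and 0.573% in the unstressed library. Reads of 34 to 41 nt were also a smaller part of all reads of 25 to 41 nt after 3 h of heat in air than in the other stressed libraries. It was counted per identifier, so that Bradi2g12470 entered with 3 loci and Bradi1g62930 with 1, and was not computed with each gene once. Per identifier, this part was 33.8% at the chosen loci after 3 h of heat in air. It was 56.5% to 75.0% there in the other stressed libraries and 55.9% in the unstressed library. At the other loci it was 6.57% after 3 h of heat in air, against 14.2% to 18.1% in the other stressed libraries and 5.48% in the unstressed library. The low value at the chosen loci in that library, where Bradi1g62930.1 alone had 58.3% of its reads at 34 to 41 nt, thus lay beside the lowest value of the stressed libraries at loci that were not chosen, and its part in the results at single loci was not tested.

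These shares use libraries that took part in the choice. When the loci were chosen again on 7 libraries and read in the library left out, 15 to 24 loci, from 9 to 13 genes, were chosen each time, 13 to 20 of the loci among the 20. There, their share of 34 to 41 nt reads was 17.9% (3 h of heat in air) to 60.2% (1 h of heat in water), against 0.572% to 3.34% at the other loci. In each of the 8 libraries left out, the interval of the chosen loci lay above the value of the other loci. These intervals count identifiers, so reads of 1 gene entered more than once and the intervals are too narrow. Counting each gene once, the shares were 27.1% (3 h of heat in air) to 63.2% (1 h of heat in water). Loci led by the same class but commonest at 25 to 29 nt, chosen on all 8 libraries, had 2.65% (unstressed) to 10.0% (24 h of cold). Those commonest at 30 to 33 nt had 3.75% to 8.64%. With 1 locus for each gene, and of the genes with 10 or more reads in the library left out, the commonest length there was again 34 to 41 nt at 4 of 6 and 5 of 8 after 6 and 24 h of cold, 4 of 10 and 1 of 9 after 1 and 3 h of heat in air, 3 of 4 and 4 of 6 after 1 and 3 h of heat in water, 5 of 9 under salt, and 2 of 3 in the unstressed library. Counted by identifier, these were 7 of 17 and 1 of 16 in heat in air.

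The share moved differently at the deeper genes. At Bradi1g62930.1 it was 32.95% and 59.2% after 6 and 24 h of cold, 44.4% and 58.3% after 1 and 3 h of heat in air, 78.2% and 58.1% after 1 and 3 h of heat in water, and 67.3% under salt, against 58.5% in the unstressed library. Its lowest share was thus after 6 h of cold and its highest after 1 h of heat in water. At Bradi2g12470.1 it was 39.6% and 50.9% after cold, 24.9% and 8.18% after heat in air, 64.4% and 47.7% after heat in water, and 36.1% under salt, against 25% of 32 unstressed reads. The 37 nt peak had 48, 111, 37, 14, 74, 114 and 55 reads in the stressed libraries, in the same order, and 5 in the unstressed library. The lowest count of this peak among the stressed libraries fell after 3 h of heat in air. There the locus had its highest unscaled count of all lengths, 318 reads. On the TMM scale its reads of all lengths were 48.7 in that library, and were highest after 1 h of heat in water, at 98.1.

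Bradi3g34250.1 had 61.6% and 59.2% of reads at 34 to 41 nt after 6 and 24 h of cold, and 43.4% under salt. After 1 and 3 h of heat in air it had 36.8% and 2.94% (4 of 136 reads), after 1 and 3 h of heat in water 19.4% and 10.0%, and in the unstressed library 0 of 4 reads, which allows up to 60.2%. Its long reads were thus mostly from the cold and salt libraries, with 90, 74 and 66 of the 258. At Bradi2g22900.1 the share was 51.5% and 50% after cold, 43.3% and 13.7% after heat in air, 67.6% and 47.7% after heat in water, and 37.8% under salt, against 20.0% of 20 unstressed reads. Bradi3g39930.1 had 18 and 26 reads of 34 to 41 nt after 6 and 24 h of cold, 4 and 0 after heat in air, 2 and 0 after heat in water, 6 under salt, and 2 in the unstressed library. Its counts after heat in water, 6 reads of all lengths each time, were too low to place its share.

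From 1 h to 3 h of heat in air the counting interval of the share fell wholly below the earlier one at Bradi2g12470.1, Bradi3g34250.1 and Bradi2g22900.1. At Bradi1g62930.1 it lay wholly above, and the changes were not tested. Without Bradi1g62930, the genes together had 24.32% and 7.69% at 1 and 3 h of heat in air, against 20.0% in the unstressed library. The 27.2% given above for 3 h of heat in air thus rested mainly on the deepest locus, which held 229 of the 277 reads of 34 to 41 nt in that library.

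**Figure D3:**
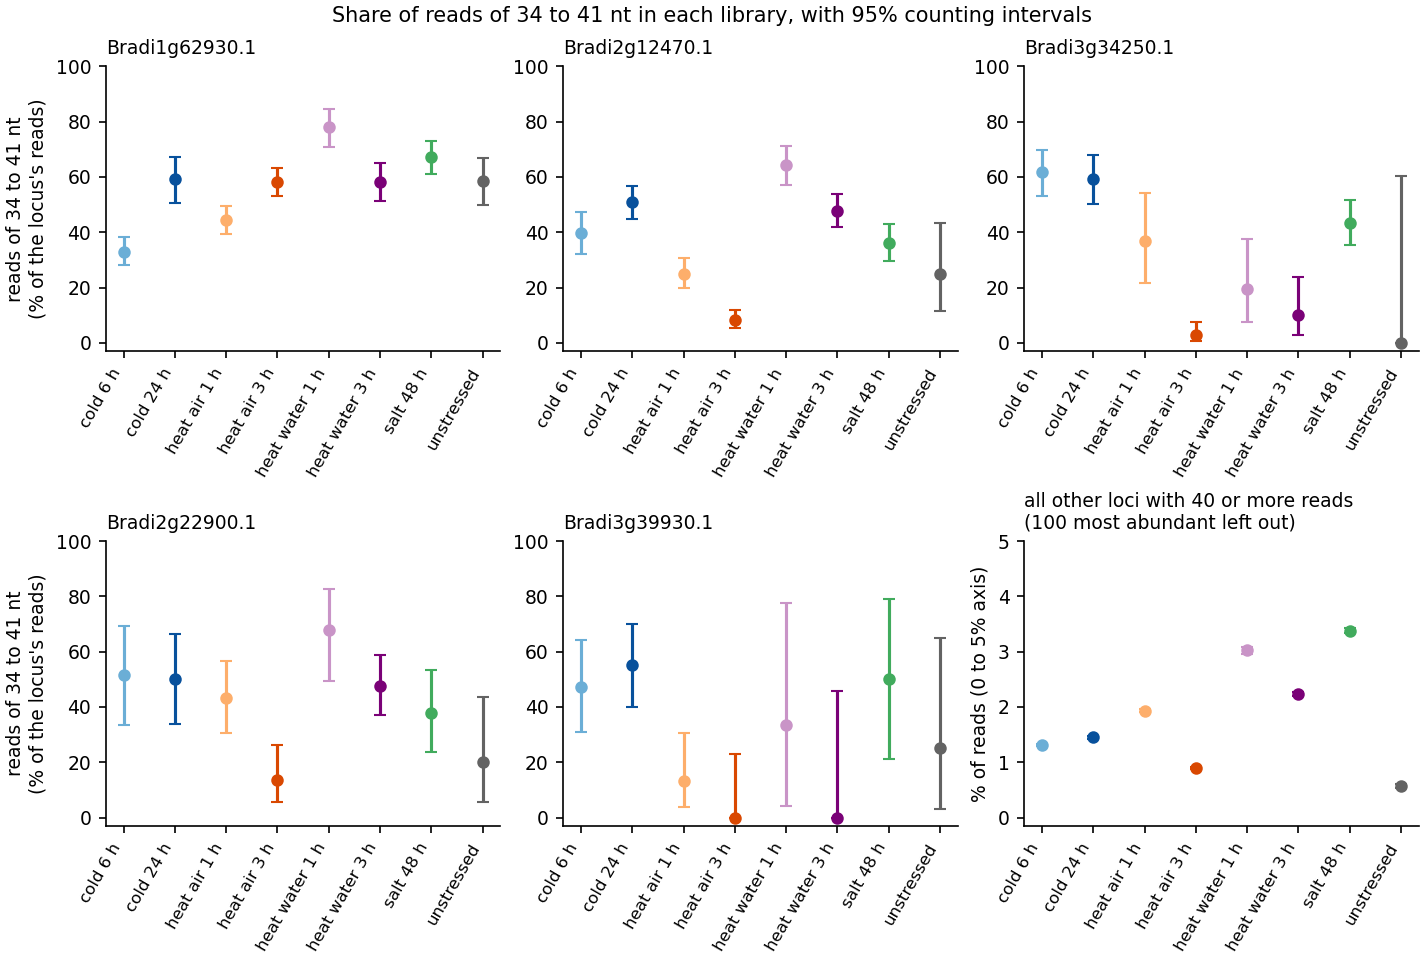
Share of reads of 34 to 41 nt in each library, in percent, with exact 95% intervals, at the 5 deeper genes and at all other candidate loci (40 or more reads, the 100 with most reads left out; last panel, on an axis that ends at 5%). After 3 h of heat in air the points are at 13.7% or lower at 4 genes and at 58.3% at Bradi1g62930.1, and the other loci have 0.904%.

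The loci were set beside those led by the same 25 to 41 nt class but commonest at 25 to 29 nt (276 loci, 203 genes) or at 30 to 33 nt (84 loci, 55 genes). The median locus had 107.5 reads, against 87 and 118.5 at these neighbours and 149 at all candidate loci. With 1 locus for each gene the medians were 124.5 reads, against 87 and 98 at the neighbours and 148 at all candidates. The commonest length held a median of 17.4% of reads, against 13.9% and 13.8% at the neighbours and 31.7% at all candidates, or 15.8%, against 14.04% and 13.8%, and 37.2% over all candidates, with 1 locus for each gene. The 24 nt class had medians of 4.99%, against 5.78% and 4.44% at the neighbours and 21.5% over all candidates. All 3 kinds had to be led by the 25 to 41 nt class, so the gap to all candidates follows in part from the choice. No unstressed reads were seen at 35% of the loci, against 40.2% and 46.4% of the neighbours and 24.6% of all candidates. The median share of 34 to 41 nt reads, 27.5% against 5.08%, 4.02% and 1.52% over all candidates, follows from the choice. None of these medians was tested.

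For comparisons of total reads at a locus, a locus was called higher or lower where the whole interval of its scaled ratio lay beyond 2-fold. For the stresses with 2 times this had to hold at both. In cold, 1 of the 20 loci was lower and 0 were higher, where 2.19% and 0.704% of the 18191 tested loci were called. That locus was Bradi1g62930.1, with 352 reads after 6 h and 142 after 24 h, against 142 in the unstressed library. On the TMM scale this was 2.70-fold lower (interval 2.21 to 3.29) and 6.31-fold lower (4.96 to 8.02). Scaled by total reads the ratios were 2.16 and 1.46, the other direction. Against the other kinds of stress they were 0.775 (0.687 to 0.871) and 0.332 (0.277 to 0.395), so that the 6 h call ended. At 6 h alone, Bradi2g22900.1 was also lower, with 33 against 20 reads (4.06-fold, 2.21 to 7.29; ratio 1.44 by total reads), and both loci of Bradi3g34250 were higher, with 146 against 4 reads (5.45-fold, 2.08 to 20.3). Against the other kinds of stress these ratios were 0.372 (0.251 to 0.535) and 1.15 (0.947 to 1.40), so that both calls ended. At 6 h alone 3.32% of tested loci were lower and 1.74% higher. At 24 h alone 0 were higher, where 1.94% of tested loci were, and Bradi1g62930.1 alone was lower, where 3.71% were. The median ratio of the 20 loci was 0.497 at 6 h and 0.634 at 24 h, against 0.746 and 0.756 over all tested loci. Loci at 0 unstressed reads, 7 of the 20, were set to a floor of 3. Both medians of the 20 loci fell at loci set to this floor, so they depend on it. Loci commonest at 25 to 29 nt had 0.497 and 0.625, and those commonest at 30 to 33 nt 0.572 and 0.435. Unstressed reads were 0 at 35% of the 20 loci, 40.2% and 46.4% of these neighbours and 24.6% of all candidates. The part of the floor in these medians was not tested, and the same floor entered the medians given below. In whole leaves, fewer cells that make an RNA and less of it per cell cannot be told apart.

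After heat in air, 0 of 20 loci were higher and 0 lower at both times, where 1.7% and 1.56% of tested loci were called. Taken alone, neither 1 h nor 3 h gave a call in either direction, where 2.82% of tested loci were higher and 2.3% lower at 1 h. At 3 h, 3.23% were higher and 3.3% lower. The median ratio was 0.920 at 1 h and 1.17 at 3 h, against 0.838 and 0.841 over all tested loci. Loci commonest at 25 to 29 nt had 0.657 and 0.612, and those commonest at 30 to 33 nt 0.723 and 0.714. Bradi2g12470.1 had 253 and 318 reads, against 32 in the unstressed library, ratios of 1.56 (1.08 to 2.33) and 1.52 (1.06 to 2.26). Bradi1g62930.1 had 408 and 393, against 142, ratios of 0.567 (0.467 to 0.691) and 0.423 (0.349 to 0.517). Both intervals of each locus lay on 1 side of no change, none of the 4 wholly beyond 2-fold, and by total reads the direction at Bradi1g62930.1 was the other one, at 2.26 and 2.50.

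After heat in water, 0 of 20 loci were higher and 0 lower at both times, where 1.7% and 1.51% of tested loci were called. At 1 h alone the 3 loci of Bradi2g12470 were higher, where 3.14% of tested loci were, with 188 reads at Bradi2g12470.1 against 32 in the unstressed library (3.07-fold, 2.099 to 4.61). At 3 h this locus had 283 reads and a ratio of 2.08 (1.44 to 3.10). At 3 h alone Bradi1g62930.1 was lower, where 3.0% of tested loci were, with 210 against 142 reads (2.88-fold, 2.31 to 3.58; ratio 1.56 by total reads). Against the other kinds of stress the ratios were 2.22 (1.89 to 2.59) at Bradi2g12470.1 at 1 h and 0.886 (0.763 to 1.02) at Bradi1g62930.1 at 3 h, so that both calls ended. In the opposite directions there were 0 calls, where 2.49% of tested loci were lower at 1 h and 3.95% higher at 3 h. The median ratio was 1.05 at 1 h and 1.25 at 3 h, against 0.783 and 0.862 over all tested loci. Loci commonest at 25 to 29 nt had 0.696 and 0.940, and those commonest at 30 to 33 nt 0.522 and 0.940.

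Under salt, 2 of 20 loci were higher and 0 lower, where 4.2% and 3.45% of tested loci were called. The 2 loci are the identical counts of Bradi3g34250, 152 reads against 4 in the unstressed library, or 11.8-fold higher (4.51 to 43.8) and 80.0-fold by total reads. Set against the other kinds of stress instead of the unstressed library, the ratio was 2.81 (2.33 to 3.38). The median ratio of the 20 loci was 1.71, against 0.931 over all tested loci. Loci commonest at 25 to 29 nt and at 30 to 33 nt both had 1.24. With 1 gene called among 12, the count is too small to set the loci apart from the background.

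**Figure D4:**
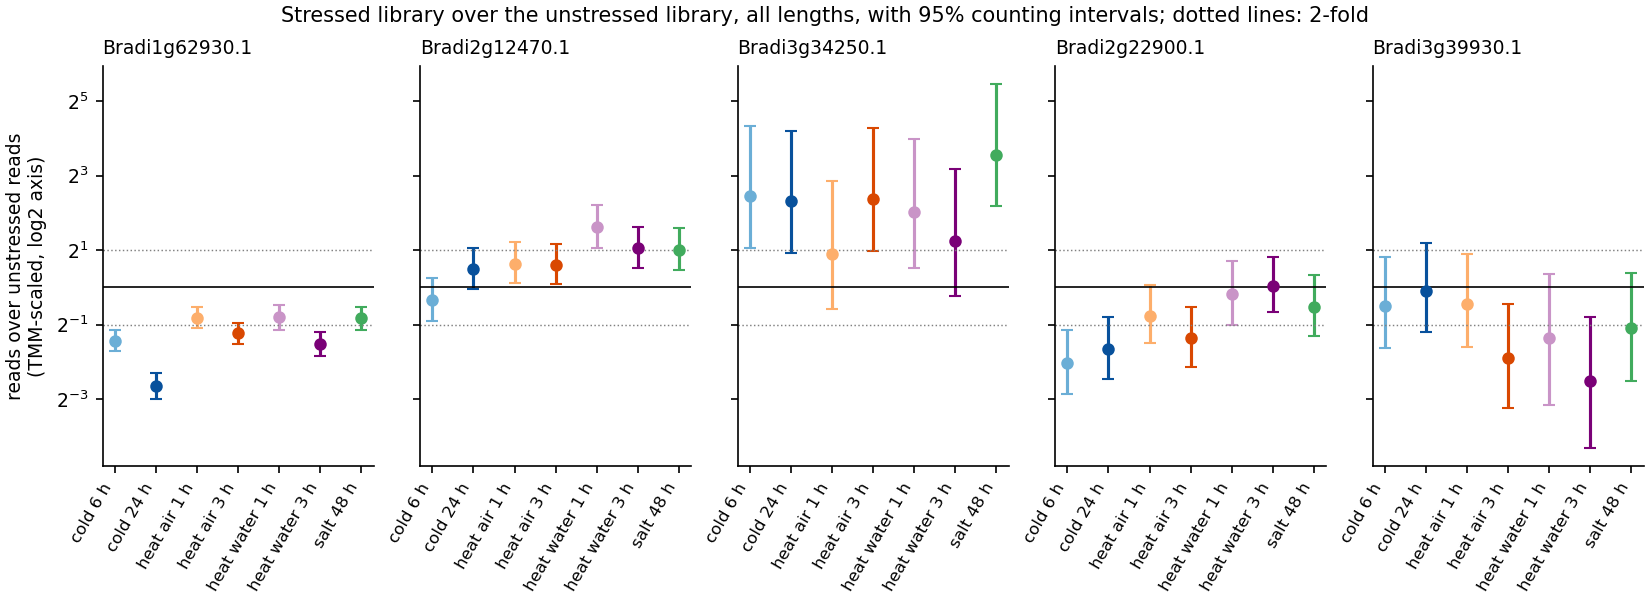
Ratio of TMM-scaled reads of all lengths in each of the 7 stressed libraries to the unstressed library (log2 axis), with exact 95% intervals, at the 5 deeper genes; the solid line is no change and dotted lines mark 2-fold. Bradi1g62930.1 lies below 1 throughout (0.159 to 0.573) and Bradi3g34250.1 above 1 (1.87 to 11.8), and scaling by total reads would move every point up by 3.59-fold to 9.20-fold.

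Between stressed libraries, 0 of 20 loci were higher and 0 lower in any of 5 direct comparisons. The tested loci called higher and lower were 2.78% and 2.18% for cold at 24 h against 6 h, 1.95% and 2.56% for the later against the earlier time of heat in air, and 2.17% and 2.05% for those of heat in water. They were 1.99% and 1.83% for heat in water against heat in air at 1 h, and 3.16% and 1.88% at 3 h. Close to the threshold lay Bradi1g62930.1 at 24 h against 6 h of cold, with 142 against 352 reads and a ratio of 0.429 (0.350 to 0.522). So did Bradi3g34250.1 at 3 h against 1 h of heat in air, with 136 against 38 reads and a ratio of 2.78 (1.93 to 4.09).

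Reads of 34 to 41 nt are given for the deeper genes as counts and scaled ratios with their counting intervals. The loci were chosen for these lengths, so these values are a description and are not set against other loci. At Bradi2g12470.1 there were 121 long reads after 1 h of heat in water, against 63 after 1 h of heat in air, a ratio of 5.08 (3.72 to 7.01). At 3 h there were 135 in water, against 26 in air, a ratio of 7.98 (5.21 to 12.7), beside 1.37 (1.16 to 1.61) for reads of all lengths. Bradi2g22900.1 had 42 long reads after 3 h of heat in water, against 7 after 3 h of heat in air, a ratio of 9.22 (4.10 to 24.32), beside 2.65 (1.86 to 3.82) for all lengths. The difference between the ratios for long and for all reads was not tested. At the other loci the share of 34 to 41 nt reads was also higher in water than in air, at 3.02% against 1.93% at 1 h and 2.24% against 0.904% at 3 h, and its part in these differences was not tested.

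Between the times of heat in air, Bradi2g22900.1 had 7 long reads at 3 h, against 26 at 1 h (4.79-fold lower, 2.02 to 13.1). In cold, Bradi1g62930.1 had 116 and 84 long reads after 6 and 24 h, against 83 in the unstressed library (4.79-fold lower, 3.57 to 6.41, and 6.23-fold lower, 4.55 to 8.54). By total reads these ratios were 1.22 and 1.48, the other direction. Bradi3g34250.1 had 90 and 74 long reads after 6 and 24 h of cold, against 0 in the unstressed library. Against a floor of 3 counts this was 4.48-fold and 3.91-fold higher. The exact intervals, which begin lower than the values at the floor, began at 3.57 and 3.10. Under salt it had 66 long reads, against 0 in the unstressed library, 6.82-fold higher against the same floor, with an interval that began at 5.40.

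At Bradi1g62930.1 reads of 21 and 34 nt followed different courses over the libraries. Reads of 34 nt numbered 109 and 78 after 6 and 24 h of cold, 166 and 220 after 1 and 3 h of heat in air, 115 and 115 after heat in water, and 162 under salt, against 81 in the unstressed library. Reads of 21 nt numbered 102 and 11 after cold, 142 and 75 after heat in air, 15 and 32 after heat in water, and 5 under salt, against 5 in the unstressed library. In unscaled counts the 21 nt reads were thus most frequent after 6 h of cold and in both libraries of heat in air. They were fewest under salt and without stress. On the TMM scale they were 15.2 and 1.74 after cold, 28.0 and 11.5 after heat in air, and 7.83 and 7.52 after heat in water. Under salt they were 1.55, against 5 in the unstressed library. This length was singled out after its values were seen. Its scaled ratio to the unstressed library was 5.60 (2.34 to 17.5) after 1 h of heat in air, 3.04 (1.26 to 9.58) after 6 h of cold and 0.310 (0.0714 to 1.35) under salt. For 34 nt the ratios were 0.404 (0.308 to 0.534), 0.201 (0.149 to 0.271) and 0.620 (0.472 to 0.820) in the same 3 libraries. By total reads the 21 nt ratios were 22.4, 17.8 and 2.11, and the 34 nt ratios 1.61, 1.17 and 4.21, so all 3 of the 34 nt ratios and the 21 nt ratio under salt turned direction, while the order of the 3 libraries was the same under both scalings at each length. At the other loci, 21 nt reads made up 9.18% to 13.6% of reads in the stressed libraries and 18.5% in the unstressed library.

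**Figure D5:**
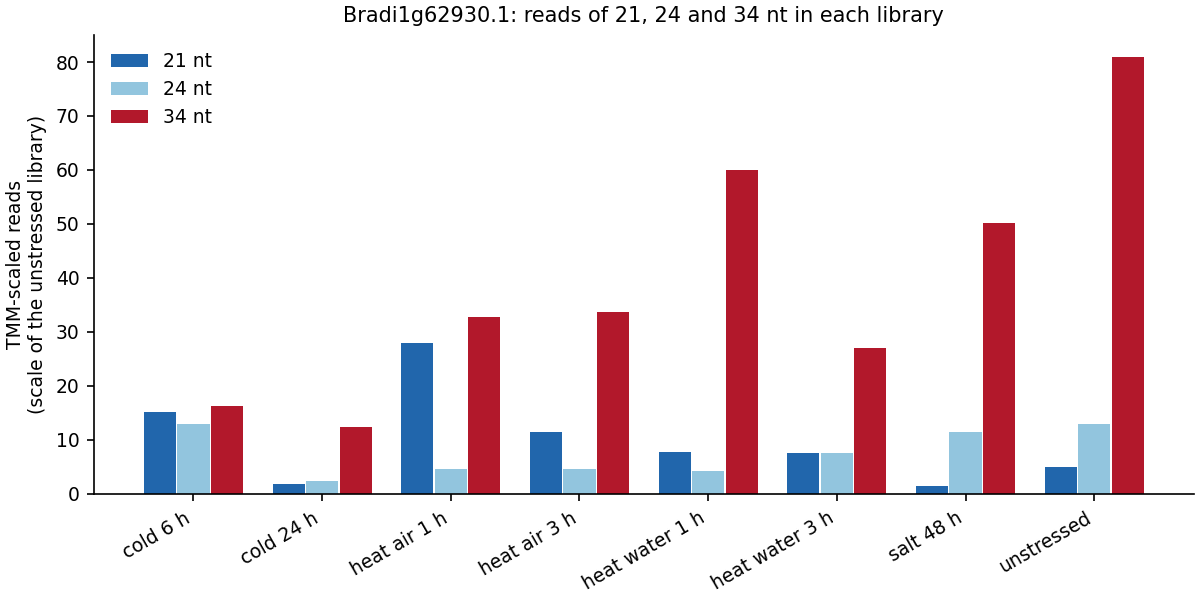
TMM-scaled reads of 21, 24 and 34 nt at Bradi1g62930.1 in each library, on the scale of the unstressed library; bars are single libraries and start at 0. The 34 nt bar is highest in the unstressed library, at 81 reads, and lowest after 24 h of cold, and the 21 nt bar is highest after 1 h of heat in air.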

How the data were processed

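The deposited values are whole-number read counts per 3' UTR locus and read length, called raw per the file headers, from 8 small RNA libraries of leaves. Header cells and columns are shifted against each other, and length was read from the column that holds 15 to 41. Per the submitters' processing notes, the tools were bedtools 2.10.0, Bowtie 0.12.7 and CASAVA, whose roles and order are not stated. Not given in the sources used here are the build, the annotation, the use of strand and the handling of reads with several places in the genome. A read in several transcripts can have been counted more than once. Deposited totals are those of 3' UTR reads, not the depth of sequencing.

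Counts were read with Python 3.11.15 (numpy 2.4.6, pandas 2.3.3, scipy 1.17.1, and matplotlib 3.10.9 for figures). TMM factors came from edgeR 4.0.16 with the unstressed library as reference, trimming 30% of log ratios and 5% of levels, over the 18191 loci with 40 or more reads. Ratios of scaled reads have exact 95% intervals (Clopper-Pearson, from the binomial share of 1 library given both). Where a library had 0 reads, 3 counts per library served as the floor for a fold. The rule for calls was tried on simulated counts with counting error only. In the files 41.2% of entries were a count of 2 and 19.5% a count of 1, which the simulation did not copy. It therefore does not give the error of the calls in these data. Amplified reads are not independent molecules.

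The loci, the rules and the lists were chosen with earlier results of these data known. Named loci are the 6 with most reads, up to 2 called per direction in each comparison, those nearest each threshold, and pairs with identical counts. None of their genes was found among the 31335 of RefSeq's table (assembly Brachypodium_distachyon_v3.0). Gene names, functions, coordinates and sequences are therefore not given, and lists by gene description were not run. Alternatives covered the scaling, the interval, the read minimum, identifiers per gene, the lengths counted, the reference library and the libraries pooled.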

Additional observations from a re-analysis of the deposited data

Results flagged for a closer look

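The share of 34 to 41 nt reads at Bradi1g62930.1 moved in opposite directions with time in different stresses. It was 26.2 percentage points higher at 24 h than at 6 h of cold (59.2% of 142 reads and 32.95% of 352) and 13.9 points higher at 3 h than at 1 h of heat in air (58.3% of 393 and 44.4% of 408). In heat in water the difference was -20.1 points (58.1% of 210 reads at 3 h and 78.2% of 156 at 1 h). Within each stress the exact 95% intervals of the 2 times, which cover counting error only, did not overlap. With 1 library per time neither the change with time nor the difference between stresses was tested. Beside it, the 21 nt reads of this locus were 7.75% and 28.98% at 24 and 6 h of cold, 19.1% and 34.8% at the later and earlier time of heat in air, and 15.2% and 9.62% at those of heat in water.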

How the results depend on the processing

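Scaled by total reads, called loci numbered 6 in cold, 11 in heat in air, 8 in heat in water and 17 under salt, all higher, and 0 were lower. Of all tested loci 48.9%, 34.6%, 23.2% and 64.6% were then higher. At the later against the earlier time, 3 were higher in cold, 2 after heat in air and 1 after heat in water (7.26%, 6.22% and 3.91% of tested loci), and in heat in water 2 were lower than in air at 3 h (4.3%). Of 35 ratios of the 5 deeper genes to the unstressed library, 21 were below 1 by TMM, and 20 of these turned by total reads. Among the 7 called ratios, those that turned were 2.16 and 1.46 (Bradi1g62930.1, cold at 6 and 24 h), 1.56 (the same locus, 3 h of heat in water) and 1.44 (Bradi2g22900.1, 6 h of cold). Totals outside the 100 most abundant loci turned none of the 7 ratios computed. Halved counts ended the 6 h cold calls of Bradi3g34250.1 (interval 1.45 to 45.8) and Bradi2g22900.1 (0.102 to 0.589) and the 1 h call of Bradi2g12470.1 in heat in water (1.79 to 5.58). The cold call was 0 at 4-fold and 0 against the other kinds of stress, and salt gave 1 with 1 identifier per gene. Against the other kinds of stress the calls at single times ended, apart from those for Bradi1g62930.1 at 24 h of cold and Bradi3g34250.1 under salt. With reads of 34 to 41 nt alone, the 2 loci of Bradi3g34250 were higher and Bradi1g62930.1 was lower in cold. Bradi2g22900.1 was lower at 3 h than at 1 h of heat in air. In heat in water against air the 3 loci of Bradi2g12470 were higher at both times, and Bradi2g22900.1 also at 3 h. These are the lengths that chose the loci, and the calls are not set beside a share of all tested loci.

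The rule gave 7 loci at a minimum of 200 reads, 42 with profiles averaged over libraries (15 of them among the 20), 10 with 1 identifier per gene and 11 with a lead of more than 2 reads. Leaving out 1 library gave 15 to 24. The share of 34 to 41 nt reads was 33.5% and 27.2% after 1 and 3 h of heat in air and 44.9% under salt, against 45.8% unstressed, with 1 locus per gene. As a median over identifiers with 10 or more reads in the library it was 16.7%, 8.21%, 64.4% (1 h of heat in water) and 33.8%, against 25% unstressed. Only 4 genes after 1 h of heat in water and 3 in the unstressed library had that many reads. The 64.4% and 25% are the values of Bradi2g12470, which entered with 3 identifiers. Without Bradi1g62930 and Bradi2g12470 it was 51.7% and 51.5% (cold, then highest), 20.8%, 6.81%, 28.5% and 28.8% (heat in water), and 34.8%, against 13.04% unstressed. Chosen on the other libraries it was 49.0% after 24 h of cold. Of reads outside the 100 most abundant loci, the loci held 0.101%, 0.1201%, 0.148%, 0.146%, 0.235%, 0.172% and 0.235%, against 0.144% unstressed. With 1 identifier per gene, 34 to 41 nt shares were 41.67%, against 5.70% and 5.66% at loci commonest at 25 to 29 and 30 to 33 nt. The causes were not tested. No paired analysis was possible because each condition had 1 library.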
